A study of Homo sapiens with 8 samples.

Results

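The first hours of BET bromodomain inhibition in a lymphoma cell line were followed on 4 of the 8 arrays of the study. RNA of DOHH2 cells exposed to BAY1238097 for 4 h or 8 h was set against RNA of DOHH2 cells exposed to DMSO, the solvent, for the same time. The 4 arrays were chosen by their labels alone, 2 with BAY1238097 and 2 with DMSO, and the remaining 4 arrays hold the same treatments at 12 h and 24 h. DOHH2 is a human B-cell line grown from a lymphoma of germinal centre type. All groups share the line and in vitro culture. No dose is stated, and no time point was repeated, so each difference at 1 time is 1 array against 1 array. The labels do not say whether the times came from separate cultures, so p-values measure only the spread between these arrays. In bulk RNA, fewer cells of a kind and less RNA per cell cannot be told apart.

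BET proteins carry bromodomains that bind acetylated lysines on histone tails. At promoters and enhancers they help bring in P-TEFb, the CDK9 and cyclin T kinase that releases paused RNA polymerase II, while HEXIM1 and the 7SK RNA hold P-TEFb inactive. Inhibitors of BET bromodomains are known for lowering MYC in blood cancers and for raising HEXIM1 and histone genes in many cell types.

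The genes that moved most at both times were mostly histone genes on the higher side. On the lower side they were a more mixed set, led by the plasma cell receptor gene TNFRSF17. Promoters of genes from each side are shown first and were searched for 4 motifs. The sequences are the 250 bases before the annotated start in the RefSeq table of GRCh38.p14, for the best ranked genes in each direction that have an entry there. Capitals mark, on either strand, the TATA box TATAAA, the CCAAT box CCAAT, the MYC and MAX E-box CACGTG and the GC box GGGCGG. Overlapping matches run together.
H2BC5, higher at both times, chr6:26157871-26158120 on the plus strand: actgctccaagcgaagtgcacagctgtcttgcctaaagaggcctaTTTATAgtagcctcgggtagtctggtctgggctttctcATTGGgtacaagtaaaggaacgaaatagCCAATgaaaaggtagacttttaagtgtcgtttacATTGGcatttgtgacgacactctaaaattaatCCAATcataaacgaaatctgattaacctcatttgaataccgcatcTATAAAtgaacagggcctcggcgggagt
H2BC11, higher at both times, chr6:27132796-27133045 on the minus strand: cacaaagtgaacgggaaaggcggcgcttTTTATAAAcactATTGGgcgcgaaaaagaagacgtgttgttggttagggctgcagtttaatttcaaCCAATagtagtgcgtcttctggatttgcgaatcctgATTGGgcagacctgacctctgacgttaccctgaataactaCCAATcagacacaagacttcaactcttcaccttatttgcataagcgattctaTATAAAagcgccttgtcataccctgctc
NOL4, lower at both times, chr18:34224914-34225163 on the minus strand: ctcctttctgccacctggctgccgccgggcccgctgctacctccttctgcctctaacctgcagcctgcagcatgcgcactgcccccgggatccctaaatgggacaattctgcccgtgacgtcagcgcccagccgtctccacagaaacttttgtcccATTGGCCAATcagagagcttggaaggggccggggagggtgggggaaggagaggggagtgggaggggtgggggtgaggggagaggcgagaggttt
GAPT, lower at both times, chr5:58491185-58491434 on the plus strand: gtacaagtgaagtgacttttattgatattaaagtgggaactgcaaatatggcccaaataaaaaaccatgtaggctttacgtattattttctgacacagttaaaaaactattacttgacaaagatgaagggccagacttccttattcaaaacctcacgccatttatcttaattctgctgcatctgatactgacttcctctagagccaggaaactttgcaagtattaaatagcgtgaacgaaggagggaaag
Both histone promoters hold a TATAAA that begins 28 bases before the start, and CCAAT boxes on both strands. NOL4 holds CCAAT boxes only, 1 on each strand, and GAPT holds none of the 4 motifs in this window. In this window of 250 bases TATAAA was found in 24.7% of 150 promoters of genes higher at both times. It was found in 6.94% of 173 promoters of genes lower at both times and in 5.89% of the 8544 promoters of all genes tested. Among the higher genes it stood in 76.0% of 25 histone promoters and in 14.4% of the other 125 promoters. CCAAT was found in 54.0%, 28.3% and 36.3% of the promoters of the higher, the lower and all genes tested. CACGTG was found in 8.67%, 8.09% and 8.98%, and GGGCGG in 65.3%, 53.8% and 65.6%. The higher genes were not alike in this. GGGCGG stood in 12.0% of the 25 histone promoters and in 76.0% of the other 125, CACGTG in 0 of the 25 and in 10.4% of the 125, and CCAAT in 88.0% and 47.2%. These shares describe letters in a window and were not tested.

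The arrays read 47231 probes, and the deposited log2 values gave 10620 genes above background on at least 2 of the 4 early arrays, 8974 of them on all 4. A log2 difference of 1 is a 2-fold difference. Mean intensities were 262 and 331 in BAY1238097 arrays at 4 and 8 h, against 264 and 383 in DMSO arrays, before the normalisation that made the arrays alike. The 4 h BAY1238097 array had the fewest probes above background, 17438, against 18544 to 18694 on the other early arrays. B-cell markers fitted the label for the most part. Of 6 on the array, 5 (MS4A1, CD79A, CD79B, CD22 and HLA-DRA) were above background on at least 1 early array, and PAX5 on none. Of 6 germinal centre markers 4 were, among them MME and CD38, but BCL6 was not. Of 8 T-cell markers TRAT1, LCK and CD8A were, while CD3D, CD3E, CD3G, CD2 and CD4 were not. None of 4 NK-cell markers was, against 4 of 7 monocyte, 2 of 5 fibroblast, 1 of 5 epithelial and 1 of 3 erythroid markers.

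A gene counted as different at both times when its BAY1238097 array was at least 1.5-fold above or below the DMSO array at 4 h and again, in the same direction, at 8 h. Of the genes tested 188 (1.77%) were higher and 225 (2.12%) were lower at both times. Apart from pairing, 397 genes (3.74%) were 1.5-fold higher and 444 (4.18%) lower at 4 h, and 446 (4.20%) higher and 617 (5.81%) lower at 8 h. The 4 h and 8 h differences had a Pearson r of 0.656 across genes, which share arrays and are not independent. The mean of the 4 h and 8 h differences, tested with limma over all genes with the late pairs adding to the estimate of the spread, passed an adjusted p of 0.05 for 684 genes (6.44%) that rose and 730 (6.87%) that fell, 13.3% in all. Under median scaling 266 rose and 778 fell. With the deposited values it passed for 185 of the 188 and 224 of the 225 genes, which follows in part from how they were chosen. The median difference of the 188 genes was 0.87 at 4 h and 0.85 at 8 h, and 0.74 at 12 h and 0.70 at 24 h on the late arrays, which did not choose them. Of these genes 103 were again 1.5-fold higher at both late times. For the 225 lower genes the medians were -0.81, -0.88, -0.75 and -0.69, and 120 were again 1.5-fold lower at both late times. Scaling each array to a common median in place of the deposited quantile normalisation moved the median gene by -0.11 at 8 h, and by -0.0019 at 4 h. The split then was 100 higher, all among the 188, and 297 lower, of which 192 were among the 225.

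**Figure D1:**
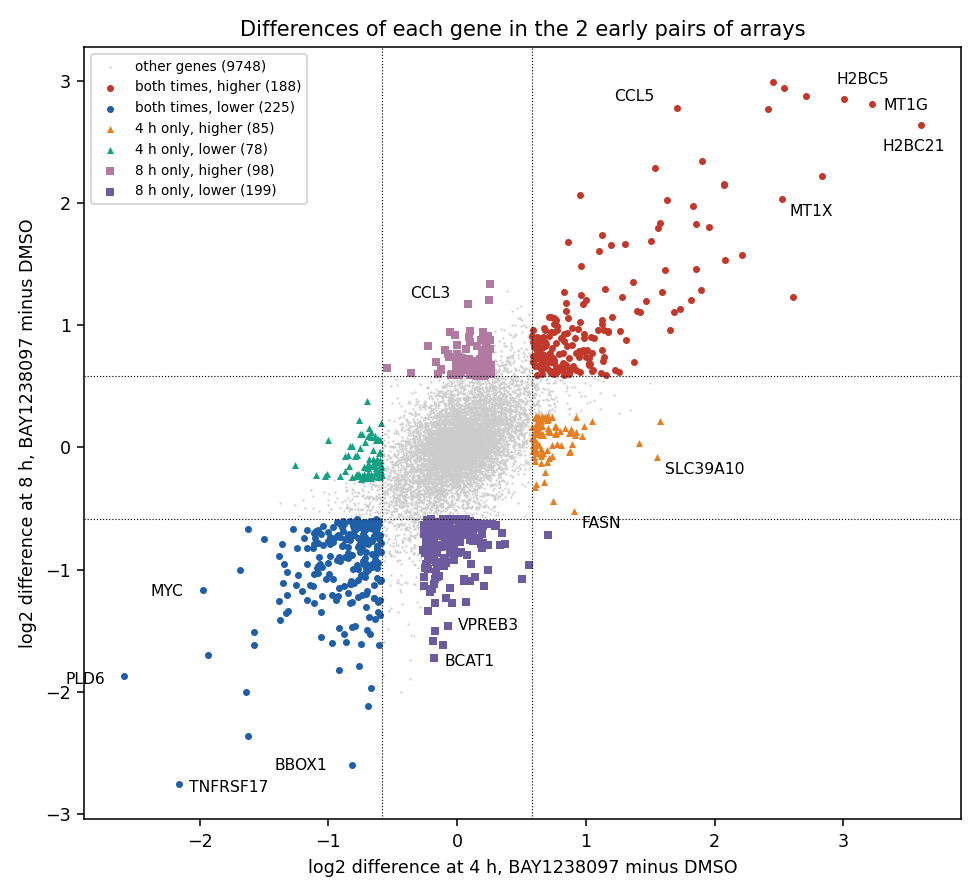
Each point is 1 of the 10620 genes tested, with the log2 difference of BAY1238097 minus DMSO at 4 h on the horizontal axis and at 8 h on the vertical axis; dotted lines mark 1.5-fold. The 188 genes higher and the 225 lower at both times lie in the upper right and lower left corners. Histone genes and MT1G lie farthest to the upper right.

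Genes above background on all 4 early arrays were ranked by the smaller of their 2 differences. Among those higher at both times, histone genes held 10 of the 12 top places. MT1G was left out of this ranking by its DMSO arrays and is given below as a lower limit. H2BC5, which encodes a histone H2B, had log2 values of 10.89 at 4 h and 10.69 at 8 h in BAY1238097 arrays, against 7.89 and 7.84 in DMSO arrays. That is 8.02-fold at 4 h and 7.20-fold at 8 h, with a mean early difference of 2.93 ± 0.089 and a limma adjusted p of 0.000444. Here and below ± is the limma SE. It draws on all 8 arrays and on other genes, so it is not the spread of the 2 early pairs. H2BC21, another H2B gene that is a usual response marker of BET inhibitors, had 10.70 and 9.69 in BAY1238097 arrays, against 7.09 and 7.06 in DMSO arrays. Its difference was 3.61 at 4 h and 2.64 at 8 h, with an early mean of 3.12 ± 0.21 and a limma adjusted p of 0.00288. In both genes the lower BAY1238097 array lay more than 2 log2 units above the higher DMSO array, and the DMSO arrays differed little from each other. The H2A gene H2AC18 had 11.15 and 11.56 in BAY1238097 arrays, against 8.60 and 8.62 in DMSO arrays, so here the 8 h difference of 2.94 exceeded the 4 h difference of 2.54. H2BC11, H2AC6, H2AC19, H2BC8, H2AC20 and H2BC12 had early means between 1.90 for H2BC12 and 2.80 for H2BC11.

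Counts of each list below stand against shares of all genes tested of 1.77% higher and 2.12% lower at both times. By limma the shares were 6.44% that rose and 6.87% that fell. The lists were chosen with earlier results of these data known, and some genes stand in more than 1 list. Of 61 replication-dependent histone genes listed, 35 were measured, 22 were higher at both times and 0 lower. These genes supply the bulk histones of S phase, and most of their transcripts end in a stem-loop without a poly(A) tail. By limma 28 of the 35 rose and 0 fell. Their median difference was 0.96 at 4 h and 0.96 at 8 h, against 0.012 and 0.0069 over all genes. Of the 35 genes 14 were not above background on all 4 early arrays. Some, H2BC6 and H3C10 among them, passed the filter through BAY1238097 arrays alone, which favours a rise in these counts and medians. The genes differed widely, from -0.08 for H2AC15 to 3.61 for H2BC21 at 4 h. H4C8 (0.96 at 4 h, 2.06 at 8 h) and H1-2 (0.86 and 1.68), a linker histone gene, had the larger difference at 8 h, while H3C4 (1.66 and 0.96) had the larger at 4 h. H2AC15, H1-3 and H4C3 stayed between -0.08 and 0.16 at both times. Clustered histone genes are near copies of each other, so a probe may have read more than 1 of them. Of 10 measured replication-independent histone genes, which are polyadenylated and made throughout the cycle, 4 were higher at both times. By limma 5 rose, among them H2AJ (2.07 at 4 h, 2.15 at 8 h), H1-10 (1.85 and 1.83) and H3-3B (1.14 and 0.71). Median scaling left 2 of them higher at both times, without H3-3B (0.51 at 8 h) and H3-5 (0.56 at 8 h). Of 46 measured genes of DNA replication and mitosis 1 was higher at both times, the ribonucleotide reductase subunit gene RRM2 (1.03 and 0.73, or 1.05 and 0.46 under median scaling), and by limma 2 rose and 0 fell.

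**Figure D2:**
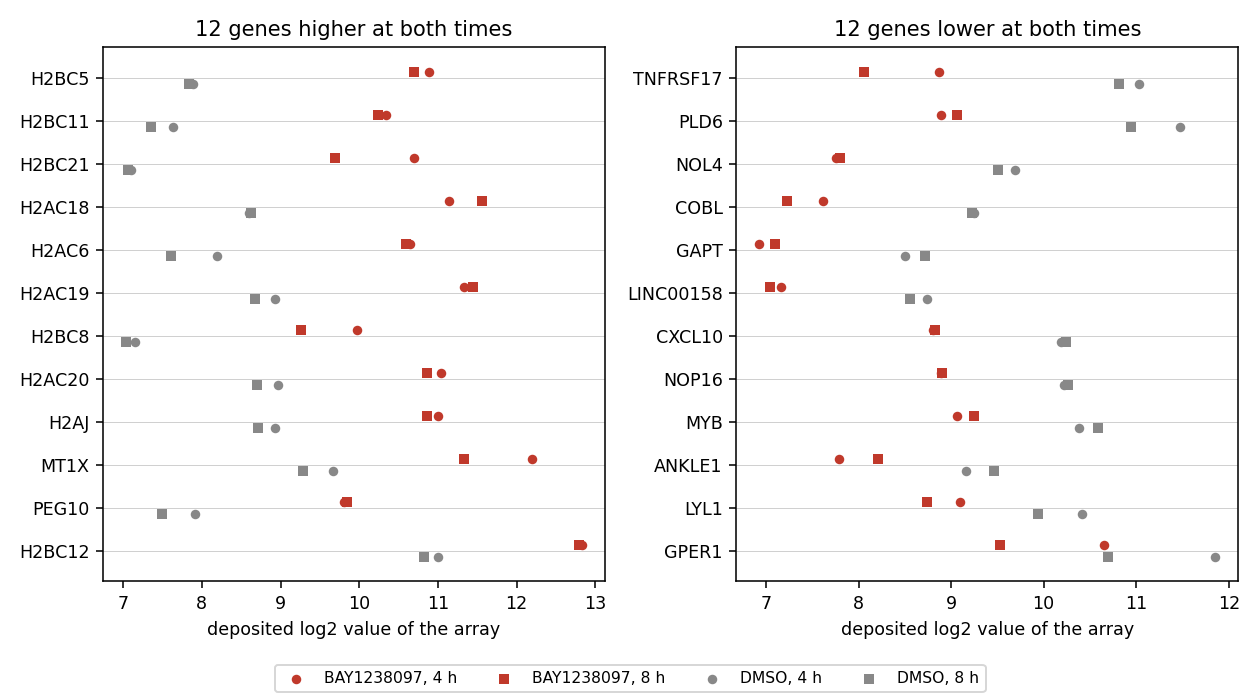
Log2 values of the 4 early arrays for the 12 top genes higher at both times (left) and the 12 top genes lower at both times (right); red marks BAY1238097 and grey DMSO, circles 4 h and squares 8 h. At each time the BAY1238097 array lies right of the DMSO array in the left panel and left of it in the right panel.

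The other 2 of the 12 were MT1X and PEG10. MT1X, a metallothionein that binds zinc and copper, had 12.19 and 11.32 in BAY1238097 arrays, against 9.67 and 9.29 in DMSO arrays. Its early mean was 2.28 ± 0.20 with a limma adjusted p of 0.00514, and the difference was smaller at each later time, at 2.52, 2.04, 1.28 and 0.55 at 4, 8, 12 and 24 h. PEG10, an imprinted gene of retrotransposon origin, had 9.81 and 9.84 in BAY1238097 arrays, against 7.91 and 7.50 in DMSO arrays. Its groups did not overlap, and its early mean was 2.12 ± 0.19 (limma adjusted p = 0.0053).

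Of 10 genes that BET inhibitors usually raise, 8 were higher at both times, and by limma 8 rose and 0 fell. Most are histone genes described above, and TXNIP, which restrains glucose uptake, added 0.96 at 4 h and 1.25 at 8 h (limma adjusted p = 0.00611). HEXIM1, the inhibitor of P-TEFb, had 7.32 and 6.96 in BAY1238097 arrays, against 6.82 and 6.78 in DMSO arrays. The 4 h BAY1238097 array stood alone and the other 3 lay close together. Its early difference of 0.34 ± 0.11 missed the threshold (limma adjusted p = 0.0898) with the deposited values and passed it after background correction, where it was 0.85. ZCCHC24, the other gene of the 10 that missed it, had 0.49 at 4 h and 0.15 at 8 h.

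Of 8 genes that BET inhibitors usually lower, 2 were lower at both times, MYC and IL7R, and by limma 3 fell and 0 rose. MYC, the growth-promoting transcription factor, had 9.64 and 10.38 in BAY1238097 arrays, against 11.61 and 11.54 in DMSO arrays. The DMSO arrays were level, and the 4 h BAY1238097 array was lower than the 8 h one. The difference was -1.97 at 4 h and -1.16 at 8 h, then -0.82 at 12 h and -0.57 at 24 h, with an early mean of -1.57 ± 0.19 and a limma adjusted p of 0.0101. The change of its effect from 4 h to later, -1.12, did not pass (limma adjusted p = 0.0987). IL7R, the interleukin-7 receptor, differed by -0.94 and -1.25 (limma adjusted p = 0.00642). CDK6, a G1 kinase, differed by -0.48 and -0.45 and also fell (limma adjusted p = 0.0342), a call lost after background correction (0.0636) and without the time point in the model (0.172). CCR1, CCR2, FOSL1, E2F2 and BCL2 did not pass. CCR1, CCR2 and FOSL1 lay near background and were not above it on all 4 early arrays, so a fall could hardly show. BCL2 was among the genes lower at 4 h only, with 8.08 in the 4 h BAY1238097 array against 8.78 in the 4 h DMSO array.

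**Figure D3:**
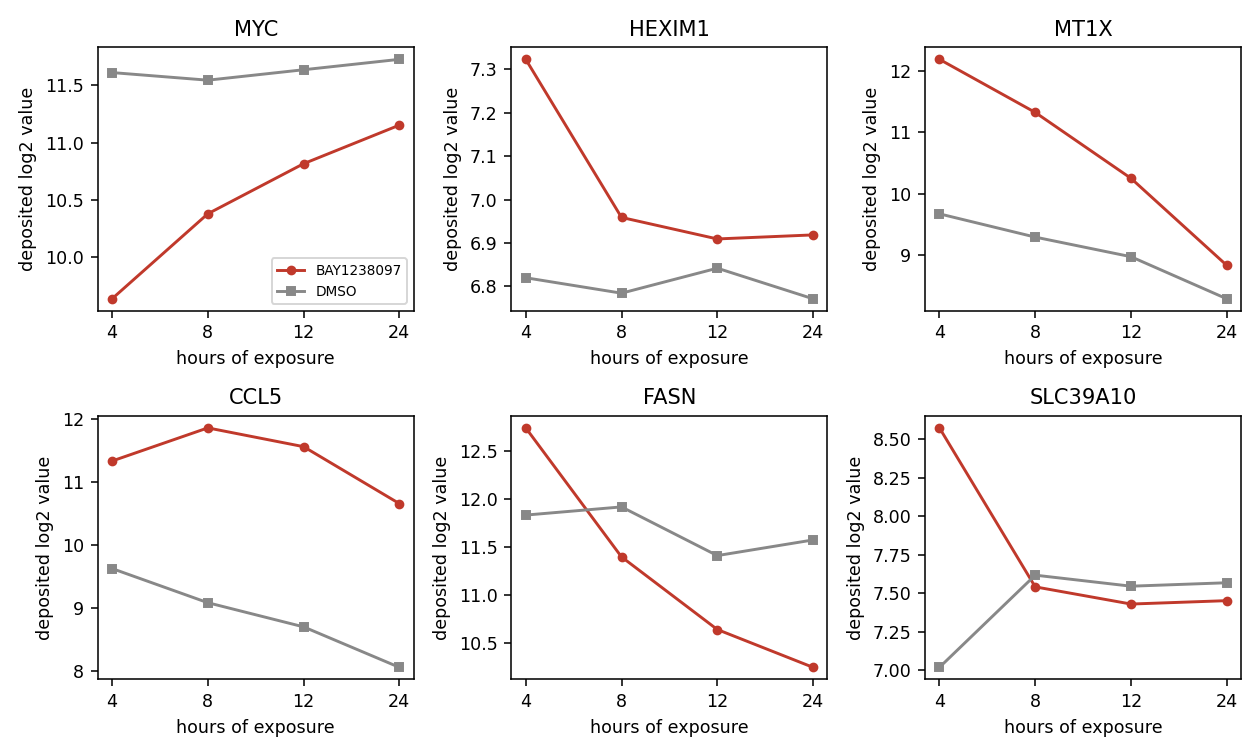
Log2 values by hours of exposure for 6 genes, with BAY1238097 in red and DMSO in grey; each point is 1 array the vertical axes differ between panels, and the times are spaced evenly, not to scale. In MYC the BAY1238097 array is lowest at 4 h, at 9.64, and in SLC39A10 and HEXIM1 it is highest at 4 h, at 8.57 and 7.32.

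MYC works as a pair with MAX, and the MXD and MNT proteins compete for the same partner. Of 9 measured genes of this network 2 were higher and 1 lower at both times, and by limma 2 rose and 3 fell. MXD1 (1.26 at 4 h, 0.62 at 8 h) and MXD4 (0.77 and 0.85), which oppose MYC, rose, with limma adjusted p of 0.0199 and 0.0354. Under median scaling MXD1 was at 1.01 and 0.52, and no longer 1.5-fold higher at both times. MNT fell by 0.44 at both times (limma adjusted p = 0.0276). Without the time point in the model MXD4 and MNT no longer passed, at 0.231 and 0.0876.

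Genes of ribosome biogenesis, a process that MYC is known to drive, were lower as a group. Of 47 measured 10 were lower at both times and 0 higher, and by limma 24 fell and 0 rose. Their median difference was -0.39 at 4 h and -0.51 at 8 h, and 34 of the 47 were lower at 8 h than at 4 h, as were 51.7% of all genes tested. Under median scaling 41 of the 47 were, against 68.3% of all genes. NOP16, a nucleolar protein gene, had 8.89 and 8.90 in BAY1238097 arrays, against 10.22 and 10.26 in DMSO arrays. Both pairs gave nearly the same difference, with an early mean of -1.34 ± 0.093 (limma adjusted p = 0.00288). RRS1, which acts in the assembly of the large subunit, differed by -1.35 and -0.96. GAR1, a core protein of the snoRNPs that direct pseudouridylation, differed by -0.96 and -1.08, and the nucleolar helicase DDX21 by -0.83 and -1.09. The genes FBL and POLR1A, for fibrillarin and the largest subunit of RNA polymerase I, differed by 0.17 and -0.15 and by 0.01 and -0.07. The 50 measured ribosomal protein genes had medians of 0.01 at both times, with 1 higher and 0 lower at both, and 0 higher under median scaling. The MYC targets of metabolism and translation had medians of -0.05 at 4 h and -0.39 at 8 h, and 43 of 46 were lower at 8 h than at 4 h. By limma 1 of them rose and 3 fell, against 6.44% and 6.87% of all genes tested. Median scaling moved their 8 h median to -0.55, with 44 of 46 lower at 8 h than at 4 h.

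Immediate-early genes are switched on soon after many stimuli. Of 30 measured 9 were higher and 0 lower at both times, and by limma 15 rose and 0 fell, with a median of 0.49 at 4 h and 0.38 at 8 h. ATF3, a stress-induced transcription factor, had 9.88 and 8.87 in BAY1238097 arrays, against 7.66 and 7.30 in DMSO arrays, and rose with an early mean of 1.89 ± 0.17 (limma adjusted p = 0.00533). ZFP36, which speeds the decay of AU-rich mRNAs, had 11.61 and 11.98 in BAY1238097 arrays, against 10.04 and 10.15 in DMSO arrays (early mean 1.71 ± 0.12, limma adjusted p = 0.00297). In neither gene did the arrays of the treatments overlap. The AP-1 subunit JUN differed by 1.59 and 1.27 and EGR1 by 1.28 and 1.23. FOS (1.01 and 0.36) and IER3 (1.06 and 0.39) rose too, with the larger part at 4 h. ZFP36L1 and ZFP36L2, relatives of ZFP36, went the other way at 4 h, at -0.86 and -0.69, and neither passed. Without the time point in the model the adjusted p of JUN and EGR1 were 0.0524 and 0.0507.

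Of 24 measured genes of growth restraint and FOXO signalling 6 were higher and 1 lower at both times, and by limma 11 rose and 1 fell. Besides TXNIP the members higher at both times were DDIT4 (1.05 and 0.77), which restrains mTORC1, TSC22D3 (0.81 and 0.90), CREBRF, BTG1 and KLF6. The lower one was KLF13 (-0.75 and -0.64). Median scaling left 4 of the list higher at both times, with DDIT4 at 0.51 and CREBRF at 0.51 at 8 h. Among G1 regulators the CDK inhibitor genes CDKN2D (1.09 and 0.96) and CDKN1B (0.66 and 0.60) were the 2 of 20 higher at both times, and both rose (limma adjusted p = 0.0053 and 0.0112). Under median scaling CDKN2D alone kept 1.5-fold at both times, with CDKN1B at 0.63 and 0.39. CCND2, which encodes cyclin D2, differed by -0.36 at 4 h and -1.74 at 8 h and did not pass. Of 17 measured BCL2 family genes none was 1.5-fold different at both times (1 was lower under median scaling), and by limma 4 rose and 2 fell. BID, which encodes a BH3-only protein that promotes cell death, fell (-0.58 and -0.82, limma adjusted p = 0.0118), although its 3 probes ran from -0.58 to 0.28 at 4 h.

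Of 23 measured genes for BET proteins, P-TEFb and elongation factors 2 were higher and 0 lower at both times, and by limma 4 rose and 0 fell. POLR2A, the largest subunit of RNA polymerase II, had 11.55 and 11.13 in BAY1238097 arrays, against 9.82 and 9.99 in DMSO arrays. The groups were far apart, with an early mean of 1.44 ± 0.15 (limma adjusted p = 0.00759), and the difference was 0.65 at 12 h and 0.58 at 24 h. CDK9, the kinase of P-TEFb, differed by 0.73 and 0.61 (limma adjusted p = 0.0113), or by 0.68 and 0.43 under median scaling, which left 1 gene of the list higher at both times. BRD2 differed by 0.50 and 0.54 (limma adjusted p = 0.0207), a call that median scaling ended at 0.0596. The median of the list was 0.17 at 4 h and 0.08 at 8 h, and under median scaling the 8 h median turned to -0.14.

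On the lower side TNFRSF17, which encodes the B-cell maturation antigen of plasma cells, had 8.87 and 8.06 in BAY1238097 arrays, against 11.03 and 10.81 in DMSO arrays. That is 4.47-fold lower at 4 h and 6.75-fold lower at 8 h, with an early mean of -2.46 ± 0.15 and a limma adjusted p of 0.00246. PLD6, a mitochondrial phospholipase gene, had 8.89 and 9.07 in BAY1238097 arrays, against 11.48 and 10.94 in DMSO arrays. Its early mean was -2.23 ± 0.17 (limma adjusted p = 0.00354), and a second probe gave smaller differences of -1.44 and -1.18. For both genes every BAY1238097 array lay well below every DMSO array. NOL4, COBL, an actin nucleator gene, and GAPT, which encodes a membrane adaptor of blood cells, had early means of -1.82, -1.82 and -1.60. The non-coding RNA LINC00158 differed by -1.58 and -1.51, and ANKLE1, which encodes an endonuclease, by -1.38 and -1.25.

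Transcription factors of B and progenitor cells were among the lower genes. MYB had 9.07 and 9.25 in BAY1238097 arrays, against 10.38 and 10.59 in DMSO arrays, with an early mean of -1.33 ± 0.089 (limma adjusted p = 0.00288). LYL1, a helix-loop-helix factor of blood progenitors, had 9.09 and 8.73 in BAY1238097 arrays, against 10.41 and 9.94 in DMSO arrays. Each time the BAY1238097 array was the lower by more than 1 log2 unit. Of 33 measured B-cell transcription factor genes 3 were lower and 0 higher at both times, MYB, BCL11A (-1.36 and -0.79) and IKZF1 (-0.66 and -0.98, or -0.52 and -1.20 under median scaling), and by limma 6 fell and 2 rose. Of 26 measured genes of B-cell receptor signalling 3 were lower and 0 higher at both times, and by limma 6 fell and 0 rose. They included RASGRP3, a Ras activator (-0.92 and -1.21), and the receptor subunit CD79B (-1.24 and -0.82). CD79B had 10.40 and 10.25 in BAY1238097 arrays, against 11.64 and 11.07 in DMSO arrays, and the difference was -0.38 at 12 h and -0.08 at 24 h. Of 25 measured germinal centre and plasma cell genes 4 were lower and 0 higher at both times, and by limma 8 fell and 0 rose. Beside TNFRSF17 they included the plasma cell marker SDC1 (-0.78 and -0.96) and the costimulatory ligand CD86 (-0.98 and -0.79), and under median scaling 6 were lower at both times.

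Of 29 measured cytokine, chemokine and receptor genes 6 were lower and 1 higher at both times, and by limma 8 fell and 2 rose. CXCL10, an interferon-induced chemokine, had 8.81 and 8.83 in BAY1238097 arrays, against 10.19 and 10.24 in DMSO arrays (early mean -1.39 ± 0.21, limma adjusted p = 0.0145). Without the time point in the model its adjusted p was 0.0534. The higher gene was CCL5, a chemokine that attracts T cells, with 11.33 and 11.86 in BAY1238097 arrays, against 9.62 and 9.08 in DMSO arrays. Its 8 h difference of 2.77 exceeded the 4 h difference of 1.71, and the early mean was 2.24 ± 0.24 (limma adjusted p = 0.0077). Of 34 measured interferon response genes 3 were lower and 2 higher at both times, and by limma 8 fell and 2 rose. IFIT1, which binds foreign RNA, was lower by about the same amount at both times (-1.11 and -1.04, limma adjusted p = 0.00443), and IRF7, an interferon regulatory factor, was higher, by 2.30-fold at 4 h and 2.09-fold at 8 h (limma adjusted p = 0.011). Of 22 measured NF-kappaB genes 1 was higher and 1 lower at both times, the inhibitor genes NFKBIA (0.78 and 0.99) and NFKBIE (-1.10 and -0.68). By limma 1 of the 22 rose and 3 fell, against 6.44% and 6.87% of all genes tested. Under median scaling 3 of the 22 were lower at both times.

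GPER1, a G protein-coupled receptor gene, had 10.65 and 9.52 in BAY1238097 arrays, against 11.85 and 10.70 in DMSO arrays. The differences were alike (-1.20 and -1.17), but the 4 h BAY1238097 array lay only just below the 8 h DMSO array. It passed with the time point in the model (limma adjusted p = 0.00288) and not without it (0.176). Its 3 probes ran from -1.20 to -0.03 at 4 h and from -1.17 to -0.20 at 8 h.

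Some genes were above background in only 1 treatment, so their fold is a lower limit, taken against the higher of the background floor and the gene's own signal on each dim array. They passed the filter through that treatment alone, which favours a difference, so no p-value is given for them. The counts of genes that rose or fell elsewhere do include them. MT1G, another metallothionein, had 9.94 and 9.57 in BAY1238097 arrays, against 6.72 and 6.77 in DMSO arrays, where it was not above background. It was at least 7.93-fold higher. DHRS2, a dehydrogenase gene, was at least 3.01-fold higher by 1 probe, while a second gave 0.94 at 4 h and 1.01 at 8 h. H2BC6 was at least 2.72-fold higher, H3C10 at least 2.12-fold and FZD9, a Wnt receptor gene, at least 1.91-fold. In the other direction ACKR4, which scavenges chemokines, was at least 2.15-fold lower by 1 probe. A second ACKR4 probe gave only -0.16 at 4 h and -0.22 at 8 h. TRAT1 was at least 2.08-fold lower and IL12A, a subunit of interleukin-12, at least 1.90-fold. PRKCQ-AS1 was at least 1.88-fold lower and PTPN6, which encodes the phosphatase SHP-1, at least 1.85-fold. TRAT1 is a T-cell adaptor and had 6.71 and 6.72 in BAY1238097 arrays, against 7.83 and 7.85 in DMSO arrays. The defining T-cell genes CD3D, CD3E and CD3G were not above background on any of these arrays. The mean level of all 8 T-cell markers, TRAT1 among them, was 6.64 and 6.59 in BAY1238097 arrays, against 6.77 and 6.80 in DMSO arrays. That mean takes in the fall of TRAT1 itself, and only 3 of the 8 were above background on any early array. It is no separate measure of T-cell genes.

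A further 85 genes (0.800%) were at least 1.5-fold higher at 4 h and under 1.2-fold higher, or lower, at 8 h. In the other direction 78 genes (0.734%) were lower at 4 h in the same sense. Their median differences were 0.68 and -0.69 at 4 h and 0.11 and -0.15 at 8 h. At 12 and 24 h the higher genes had medians of 0.08 and 0.14, and the lower genes -0.09 and -0.09. ADGRV1 was 1.5-fold higher at 4 h and 1.5-fold lower at 8 h (0.71 and -0.72), and counts at both. Of the 85 genes 26 were on the other side of 0 at 8 h, and of the 78 genes 17 were. These genes rest on 2 single arrays each, and for 61 of the 85 and 50 of the 78 it was the BAY1238097 array that differed more between 4 and 8 h. Median scaling left 93 higher, 46 of them shared, and 21 lower, 19 of them shared.

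SLC39A10, a zinc importer gene, had the largest 4 h difference among the 85 genes that were above background on all 4 arrays. It had 8.57 at 4 h and 7.54 at 8 h in BAY1238097 arrays, against 7.02 and 7.62 in DMSO arrays. Both 4 h arrays stood apart from the later ones, the BAY1238097 array above and the DMSO array below. MRFAP1L2 had 9.18 and 7.87 in BAY1238097 arrays, against 7.76 and 7.83 in DMSO arrays, so there only the 4 h BAY1238097 array stood apart. CDKN1A, which encodes the CDK inhibitor p21, had 12.43 and 11.51 in BAY1238097 arrays, against 11.50 and 11.39 in DMSO arrays. Its 4 h difference was 0.92, and no later difference exceeded 0.20. Fatty acid synthase, FASN, was higher at 4 h and lower after it, with differences of 0.91, -0.52, -0.77 and -1.32 at 4, 8, 12 and 24 h. It had 12.74 and 11.40 in BAY1238097 arrays, against 11.83 and 11.92 in DMSO arrays, which moved little. C6orf62, PPP1R10, a nuclear regulator of protein phosphatase 1, RANBP10, HAPSTR1, the ubiquitin-activating enzyme gene UBA1 and DESI2 had 4 h differences between 0.89 for DESI2 and 1.05 for C6orf62. In UBA1 the DMSO arrays differed more, with 8.76 at 4 h and 9.80 at 8 h, than the BAY1238097 arrays, with 9.65 and 9.83.

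Among genes lower at 4 h only, CYTIP, which encodes a cytohesin-binding protein of lymphocytes, had 9.35 and 9.91 in BAY1238097 arrays, against 10.60 and 10.06 in DMSO arrays. Here too both treatments moved between the times, towards each other. DLEU1, a long non-coding RNA, had 8.85 and 9.80 in BAY1238097 arrays, against 9.68 and 9.79 in DMSO arrays, so the 4 h BAY1238097 array stood alone. TICAM1, which encodes the Toll-like receptor adaptor TRIF, differed by -1.01 and -0.22, and GABPB1, an ETS complex subunit, by -0.91 and -0.24. CHST2, a sulfotransferase gene, ZNF586, BTBD7, PLCL2, ZFP69B and the death receptor gene TNFRSF21 had 4 h differences between -1.09 for CHST2 and -0.84 for TNFRSF21. Probes of the same gene did not always match: the 3 for BTBD7 ran from -1.01 to 0.12 at 4 h. Only 3 of these 10 named genes stayed in the class under median scaling, and 6 after background correction, while all 10 on the higher side stayed under both.

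**Figure D4:**
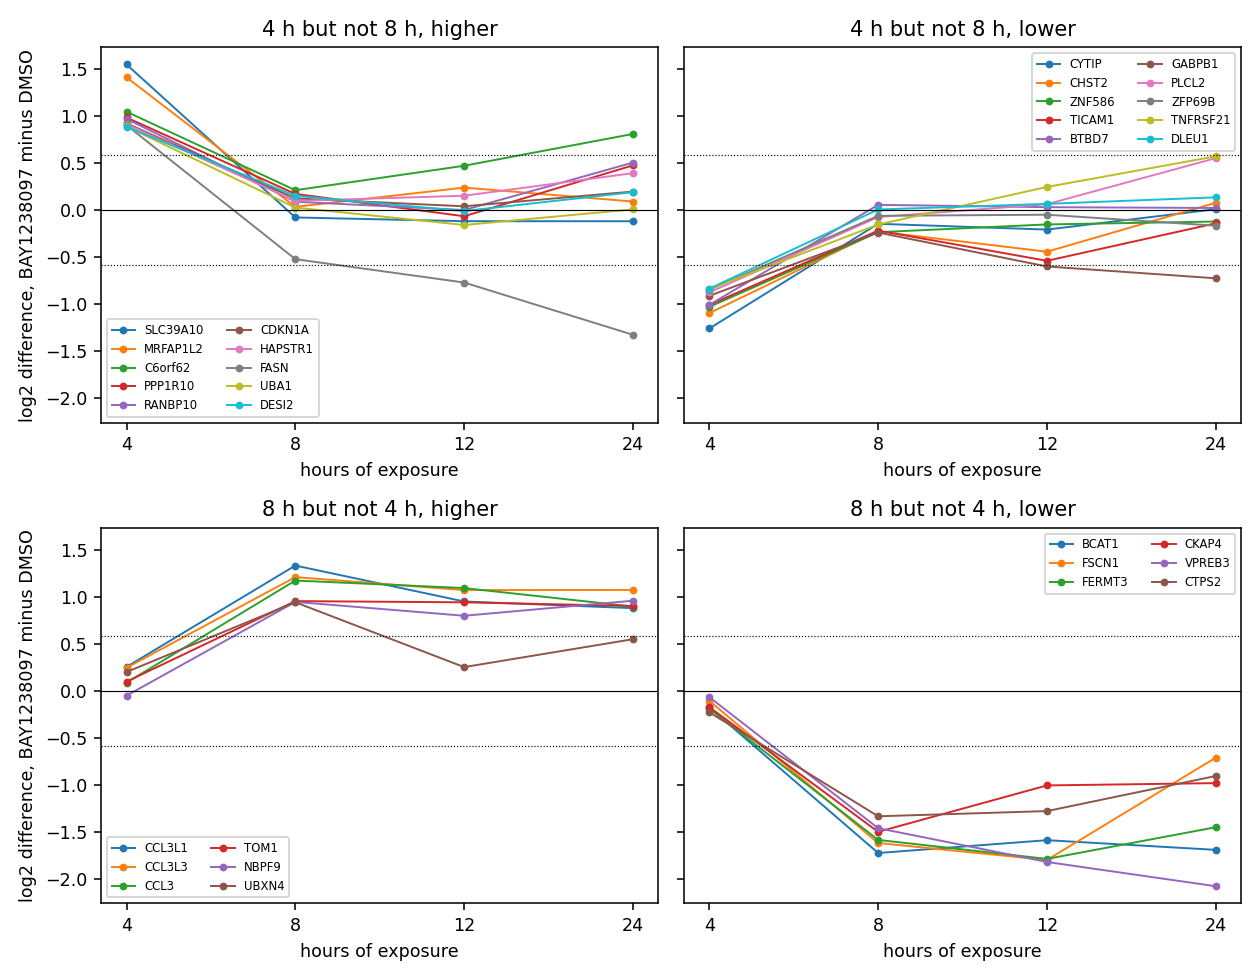
Log2 differences of BAY1238097 minus DMSO by hours of exposure for the named genes that differed at 4 h but not 8 h (top) and at 8 h but not 4 h (bottom); each line is a gene, each point 1 pair of arrays, dotted lines mark 1.5-fold, and the times are spaced evenly, not to scale. FASN crosses to the lower side by 8 h, and the genes of the bottom right panel stay lower at 12 and 24 h.

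The 4 h difference was also tested against the mean of the 3 later differences, which gave 5 genes (0.0471%) by limma, all with an adjusted p of 0.0413, and 2204 genes at an unadjusted p under 0.05. No gene passed in the negative direction. The 4 h pair was not repeated, so the spread in this test came from the 3 later pairs alone. Its p-values do not measure how 4 h arrays vary, and a stray 4 h array could pass. The 85 genes were chosen by their 4 h and 8 h values, which this test uses too, so it is no separate support for them. SLC39A10, with a change of 1.65, was the only gene of the 85 among the 5. The other 4 were genes whose lower value came after 4 h. BBOX1, an enzyme gene of carnitine synthesis, had 8.79 and 7.30 in BAY1238097 arrays, against 9.61 and 9.89 in DMSO arrays. It was lower at 4 h already (-0.82) and more so at 8 h (-2.59), a change of 1.92. SLC15A3, a lysosomal transporter gene, had 9.42 and 8.05 in BAY1238097 arrays, against 9.78 and 9.95 in DMSO arrays, a change of 1.51. For BCAT1, which starts the breakdown of branched-chain amino acids, and ELMO1, which helps activate Rac, the changes were 1.49 and 1.37. The 4 ELMO1 probes ran from -1.13 to -0.05 at 8 h. Leaving out the 12 h pair of arrays gave 0 genes and leaving out the 24 h pair gave 472 with positive and 313 with negative change, so the count rests on single late pairs.

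At 8 h but not 4 h, 98 genes (0.923%) were higher and 199 (1.87%) lower. Of these, 44 of the 98 and 110 of the 199 were again 1.5-fold the same way at both 12 and 24 h. For the genes at 4 h only the counts were 0 of 85 and 1 of 78. The sets were chosen unlike: the 4 h genes had to be under 1.2-fold at the next time, the 8 h genes at an earlier one. The contrast follows in part from that choice, and the share over all genes was not counted. Median scaling gave 31 higher and 511 lower. The chemokine genes CCL3, CCL3L1 and CCL3L3 are near-identical copies that their probes may not separate. CCL3 had 10.39 and 10.15 in BAY1238097 arrays, against 10.30 and 8.98 in DMSO arrays. The difference of 1.17 at 8 h thus came with a lower DMSO array, while the BAY1238097 arrays were much alike. TOM1, NBPF9 and UBXN4 differed by 0.96, 0.95 and 0.94 at 8 h. On the lower side BCAT1 had 8.42 and 7.42 in BAY1238097 arrays, against 8.59 and 9.14 in DMSO arrays. VPREB3, a pre-B-cell gene, had 9.35 and 7.76 in BAY1238097 arrays, against 9.42 and 9.22 in DMSO arrays. In VPREB3 the 8 h BAY1238097 array alone was low, and the difference reached -1.82 at 12 h and -2.08 at 24 h. FSCN1, which bundles actin, and FERMT3, which activates integrins, differed by -1.62 and -1.59 at 8 h, CKAP4 by -1.50 and CTPS2, a CTP synthase gene, by -1.33.

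Several gene lists had different medians at 4 h and 8 h. Of 24 measured genes of cholesterol and fatty acid synthesis, 21 were lower at 8 h than at 4 h, against 51.7% of all genes tested. Under median scaling the count was again 21, against 68.3% of all genes. Their median was 0.23 at 4 h and -0.14 at 8 h. IDI1, an isoprenoid enzyme gene, had 11.03 and 8.88 in BAY1238097 arrays, against 9.77 and 8.60 in DMSO arrays. INSIG1, the sterol sensor that holds back SREBP processing, had 13.26 and 11.80 in BAY1238097 arrays, against 12.15 and 11.49 in DMSO arrays. In both genes both treatments were lower at 8 h, and the difference in IDI1 was 1.26 at 4 h and 0.28 at 8 h. By limma 1 of the 24 rose over the early pairs, LSS, and 1 fell, ELOVL6. Interferon response genes had medians of -0.13 at 4 h and -0.49 at 8 h, and 29 of 34 were lower at 8 h than at 4 h, or 31 under median scaling. OAS2, an interferon-induced sensor of double-stranded RNA, had 9.69 and 8.44 in BAY1238097 arrays, against 10.13 and 10.43 in DMSO arrays, and did not pass over both (limma adjusted p = 0.0616). Genes of MHC class II presentation had medians of 0.03 and -0.34, with 14 of 15 lower at 8 h than at 4 h under both scalings. Their activator CIITA was lower at both (-0.62 and -1.07, limma adjusted p = 0.0145), a call that median scaling ended at 0.0536. HLA-DMB, which helps load peptides, differed by -0.61 and -1.61. Germinal centre and plasma cell genes had medians of -0.07 and -0.41. These medians were not tested against each other, and under median scaling those of cholesterol and fatty acid synthesis were 0.16 and -0.37.

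**Figure D5:**
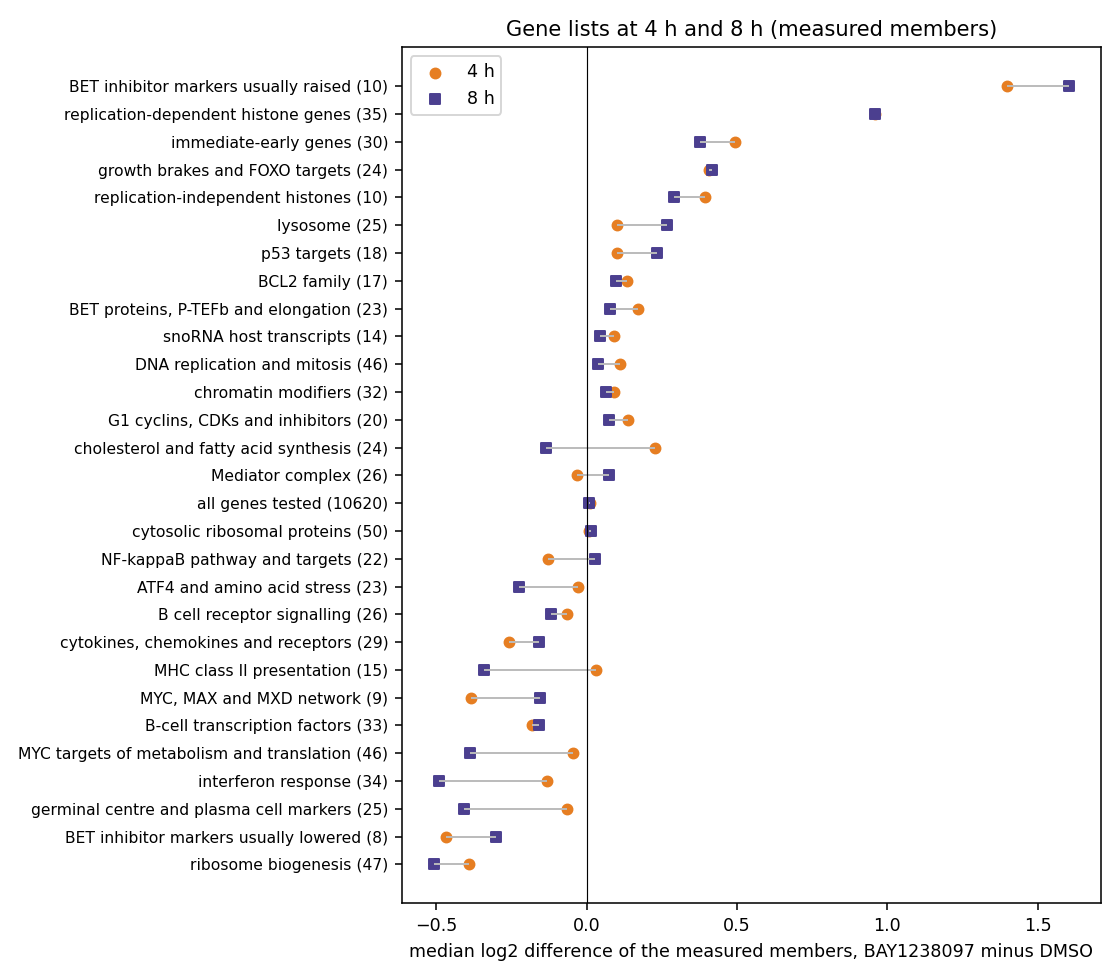
Median log2 difference of BAY1238097 minus DMSO over the measured members of each gene list at 4 h (circles) and 8 h (squares), with the number measured in brackets. The usual raised markers and the histone genes lie farthest right and ribosome biogenesis farthest left, while cholesterol and fatty acid synthesis lies at 0.23 at 4 h and -0.14 at 8 h.

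Smaller lists were mixed. Over all genes 1.77% were higher and 2.12% lower at both times, and by limma 6.44% rose and 6.87% fell. Of 23 measured genes of ATF4 and amino acid stress 2 were higher and 1 lower at both times. The lower one was TRIB3, an ATF4-induced pseudokinase gene (-1.25 and -1.12), and the asparagine synthetase gene ASNS was higher (1.06 and 0.89). Of 18 measured p53 targets 1 was higher and 1 lower, the repair gene XPC (0.87 and 0.73, or 0.85 and 0.54 under median scaling) and AEN (-0.75 and -0.75). Median scaling gave 1 higher and 2 lower genes of the ATF4 list and 0 higher and 2 lower p53 targets. Of 25 measured lysosome genes 2 were higher, the sialidase gene NEU1 (0.86 and 1.06) and the cholesterol transporter gene NPC1 (0.83 and 0.87), and by limma 6 rose and 1 fell. Of 26 measured Mediator genes none was 1.5-fold different at both times (2 were lower under median scaling), and by limma 3 rose and 2 fell. Of 32 measured chromatin modifier genes the deacetylase gene HDAC9 was lower at both times (-1.11 and -0.70), with its 3 probes between -1.11 and 0.02 at 4 h. Of 14 measured snoRNA host transcripts SNHG9 was higher (early mean 1.33) and SNHG15 lower (-0.75 and -0.79).

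The early effect was last set against the late effect, the mean of the 12 and 24 h differences. By limma 0 genes passed, with 1018 at an unadjusted p under 0.05 and a lowest adjusted p of 0.502. Each effect is the mean of 2 pairs, with 2 residual degrees of freedom.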

How the data were processed

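RNA of 8 samples labelled by treatment and hours was extracted with Qiagen RNeasy, labelled with biotin by an Ambion kit and hybridised to Illumina bead arrays, per the labels' protocols. The deposited linear intensity of each probe was not normalised. The deposited log2 values were quantile-normalised by the authors without background correction, as setting them against the intensities showed (largest difference 0.00126). They were used as given. No detection p-value was given, so the share of 437 olfactory receptor probes at least as bright stood in for it, and a probe was kept when that share was under 0.05 on at least 2 early arrays. Of 47231 probes 30113 had 1 gene symbol, 8 several and 17110 none. The kept probe with the highest mean stood for its gene. The intensity table held 10 further columns without a name or values, which were not used.

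limma 3.58.1 in R 4.3.3 was fitted to all 8 arrays, with time as a factor and an early and a late treatment effect, and Benjamini-Hochberg adjustment at 0.05 over 10620 genes. There are 2 residual degrees of freedom, and the number of arrays limits the precision. Scripts were tested on simulated data. Arrays of the same time deviated together from their treatment means (correlations of 0.596, 0.393, 0.670 and 0.476 at 4, 8, 12 and 24 h), so times pair the arrays. Classes used 1.5-fold and 1.2-fold limits. Named genes were those above background on all 4 early arrays with the largest smaller difference (12 higher and 12 lower at both times), the largest difference at 1 time (10 each way at 4 h, 6 at 8 h), the largest lower limits (5 each way), all genes of the test of 4 h against later, the response markers and the leading 4 of each list; further list members were picked with their values in view. The members and lists were chosen with earlier results of these data known. Alternatives were median scaling, background correction (normexp), other filters, probe averages, a 2-fold limit, a variance trend, no time factor, early arrays only and leaving out each pair. Figures were drawn with matplotlib 3.10.9 in Python 3.11.15.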

Additional observations from a re-analysis of the deposited data

Results flagged for a closer look

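The 4 arrays of a treatment are 4 different times and not replicates. Dixon's test was run on 340 groups of 4 arrays, over 169 named genes and the arrays' mean intensity. In 24 groups 1 array lay apart from the other 3. Chance flags about 1 in 20 groups, but some of these genes were named because their 4 h and later differences were unlike. Flags on 4 h arrays follow in part from that choice. In 14 of the 24 it was the 4 h BAY1238097 array. It stood above the later BAY1238097 arrays in TNFRSF17 at 8.87, SLC39A10 at 8.57, MRFAP1L2 at 9.18, BCAT1 at 8.42, BBOX1 at 8.79 and SLC15A3 at 9.42. The same held for HEXIM1 at 7.32, ZCCHC24 at 7.42, H3-3B at 10.56, ISG20 at 11.51 and IDI1 at 11.03. It stood below them in DLEU1 at 8.85, NBPF9 at 9.06 and ZFP36 at 11.61. Of the other BAY1238097 arrays, the 8 h array stood above the rest in TRAF1 at 7.82 and the 24 h array in PTPN6 at 6.90.

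Among DMSO arrays the 4 h array stood above the later ones in CYTIP at 10.60, and below them in MYB at 10.38, SLC39A10 at 7.02 and CKAP4 at 9.23. The 24 h DMSO array stood above the others in COBL at 9.66 and CCNG2 at 8.42. The 12 h DMSO array stood below the others in ASNS at 9.85 and above them in NEU1 at 8.01.

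In 5 genes the 4 h difference differed from the mean of the 3 later differences by limma, each with an adjusted p of 0.0413. The 4 h difference was above the later mean by 1.92 in BBOX1, 1.65 in SLC39A10, 1.51 in SLC15A3, 1.49 in BCAT1 and 1.37 in ELMO1. The 4 h pair was not repeated, so the spread in this test came from the later pairs alone.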

How the results depend on the processing

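Median scaling gave 100 genes higher at both times, 21 lower at 4 h only, 31 higher and 511 lower at 8 h only, 266 genes that rose and 778 that fell over the early pairs, and 189 and 6 in the test of 4 h against later. Background correction gave 464 higher and 505 lower at both times, including all 188 and 225, 355 and 261 at 4 h only, 278 and 377 at 8 h only, and 23 and 4 for 4 h against later. It widened the spread of differences 1.51-fold at 4 h and 1.46-fold at 8 h. A 2-fold limit left 45 and 28 at both times, 4 and 5 at 4 h only and 3 and 27 at 8 h only. A variance trend gave 42 and 11 for 4 h against later. Without the time block, which leaves out the pairing by time, 303 rose and 323 fell over the early pairs. With only the 4 early arrays 329 rose and 375 fell. Leaving out each pair gave 329 to 633 that rose, 375 to 799 that fell, 0 to 472 and 0 to 313 for 4 h against later, and 0 to 47 and 0 to 5 for early against late. Under these alternatives the early effect of no named gene that passed the test turned its sign. The cause of these differences was not tested. Signals near background, where 25255 probes lay on all 4 early arrays, limit what small differences can show.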

Other observations

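Metallothioneins, small proteins that bind zinc and copper, were looked at together after MT1X and MT1G were seen among the higher genes, so their list was chosen on these values. Of 6 measured, 5 were higher at both times, and all 6 rose over the early pairs by limma. MT1G among them passed the background filter through its BAY1238097 arrays alone. MT2A had 11.29 at 4 h and 11.49 at 8 h in BAY1238097 arrays, against 9.65 and 9.47 in DMSO arrays (limma adjusted p = 0.00246). Its arrays did not overlap between the treatments. MT1E differed by 0.65 and 0.64, MT1H by 0.75 and 0.73, and MT1F by 0.28 and 0.51. The median of the 6 was 1.19, 1.38, 0.86 and 0.27 at 4, 8, 12 and 24 h, and in 5 of the 6 the difference was smaller at 24 h than at 4 h. Of 16 measured zinc transporter genes, listed in the same way, 0 were higher at both times and 1 rose by limma, and their median was -0.08 at 4 h and -0.10 at 8 h. SLC39A10, higher at 4 h only, is one of them.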
